A study of Homo sapiens with 60 samples.

Results

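The multi-herb water extracts Sagunja-tang and Samul-tang were compared at 500 µg/mL in HepG2, a human liver cancer cell line, after 24 h. The comparison rests on 6 of the 60 libraries analysed, 3 for each formula, taken by their column codes of set 7 and replicates 1, 2 and 3. Both formulas were also given at 100 and 20 µg/mL, with 3 libraries each, so that set 7 held 18 libraries. The vehicle, dimethyl sulfoxide, had 3 libraries, and its strength is given as 0.1% with each sample but as 2% in the text on the design. In the herbal tradition Sagunja-tang is built on ginseng, Atractylodes, Poria and licorice, and Samul-tang on Rehmannia, Angelica, Cnidium and peony, though the labels do not give the recipes used. The labels describe 1 cell line and do not say whether libraries of a group came from separate cultures, so each p-value reflects only how far these libraries spread, which may be technical.

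Hepatocytes read iron stores through bone morphogenetic proteins (BMPs), secreted ligands that bind receptor kinases at the cell surface. The receptors phosphorylate SMAD proteins, which enter the nucleus and raise the hepcidin gene HAMP, the ID genes and the feedback inhibitors SMAD6 and SMAD7. Hepcidin is the liver hormone that blocks iron export by degrading ferroportin. Liver cells also carry sensors for foreign chemicals, among them the aryl hydrocarbon receptor, which drives CYP1A1, and NRF2, which drives detoxifying and redox enzymes.

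Total counts at 500 µg/mL were 25591320, 34412234 and 23764970 for Sagunja-tang and 26894008, 21199549 and 21860517 for Samul-tang. Mitochondrial transcripts took 12.96 to 18.82% of counts with Sagunja-tang and 14.91 to 16.68% with Samul-tang. Of 13 hepatic markers, 0 were at 0, and they summed to 57800 to 60900 CPM (counts scaled to a common library size) against 56500 to 58500 CPM. Of 24 markers of other cell types, 18 stayed below 1 CPM in all 6 libraries and 7 were at 0, PTPRC, CD3E and HBB among them. Their sum, 1370 to 1580 CPM against 1370 to 1560, was nearly all LYZ, which ran from 1300 to 1510 CPM. Samul-tang at 20 µg/mL, replicate 2, stood apart: it was the highest or lowest of the 18 libraries for 60.2% of 11953 genes with a mean of at least 2 CPM. It was not one of the 6 libraries compared, but it entered the shared estimate of the spread. Among the 6, Sagunja-tang replicate 1 was the most extreme, highest or lowest for 26.7% of these genes. Because Samul-tang 20 µg/mL replicate 2 stood apart, the main counts of calls and many of the dose comparisons are also given without it. Called list members at 500 µg/mL are counted only with it in the fit, so members that did not pass there may pass without it.

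At 500 µg/mL the 4 smallest adjusted p-values belonged to BMP-SMAD target genes (ID3, ID1, HAMP and ID2), all lower with Samul-tang. Of 15608 genes tested, 45 (0.288%) differed by edgeR's quasi-likelihood test with Benjamini-Hochberg adjusted p under 0.05. Of these, 22 (0.141%) were higher with Sagunja-tang and 23 (0.147%) higher with Samul-tang. Most differences were small: the median absolute log2 difference of the 45 was 0.41, and 6 reached 2-fold. In all 45 the 3 libraries of one formula lay above the 3 of the other, as they did for 13.4% of all genes tested (6.27% higher and 7.18% lower with Sagunja-tang). Of the 45, 42 are protein-coding, 2 are processed transcripts and 1 is a transcribed pseudogene. Without Samul-tang 20 µg/mL replicate 2 in the fit, 140 genes were called, all 45 among them, and without Sagunja-tang 500 µg/mL replicate 1, 26 were called. Leaving out any one of the other 5 compared libraries gave 15 to 29 calls.

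**Figure D1:**
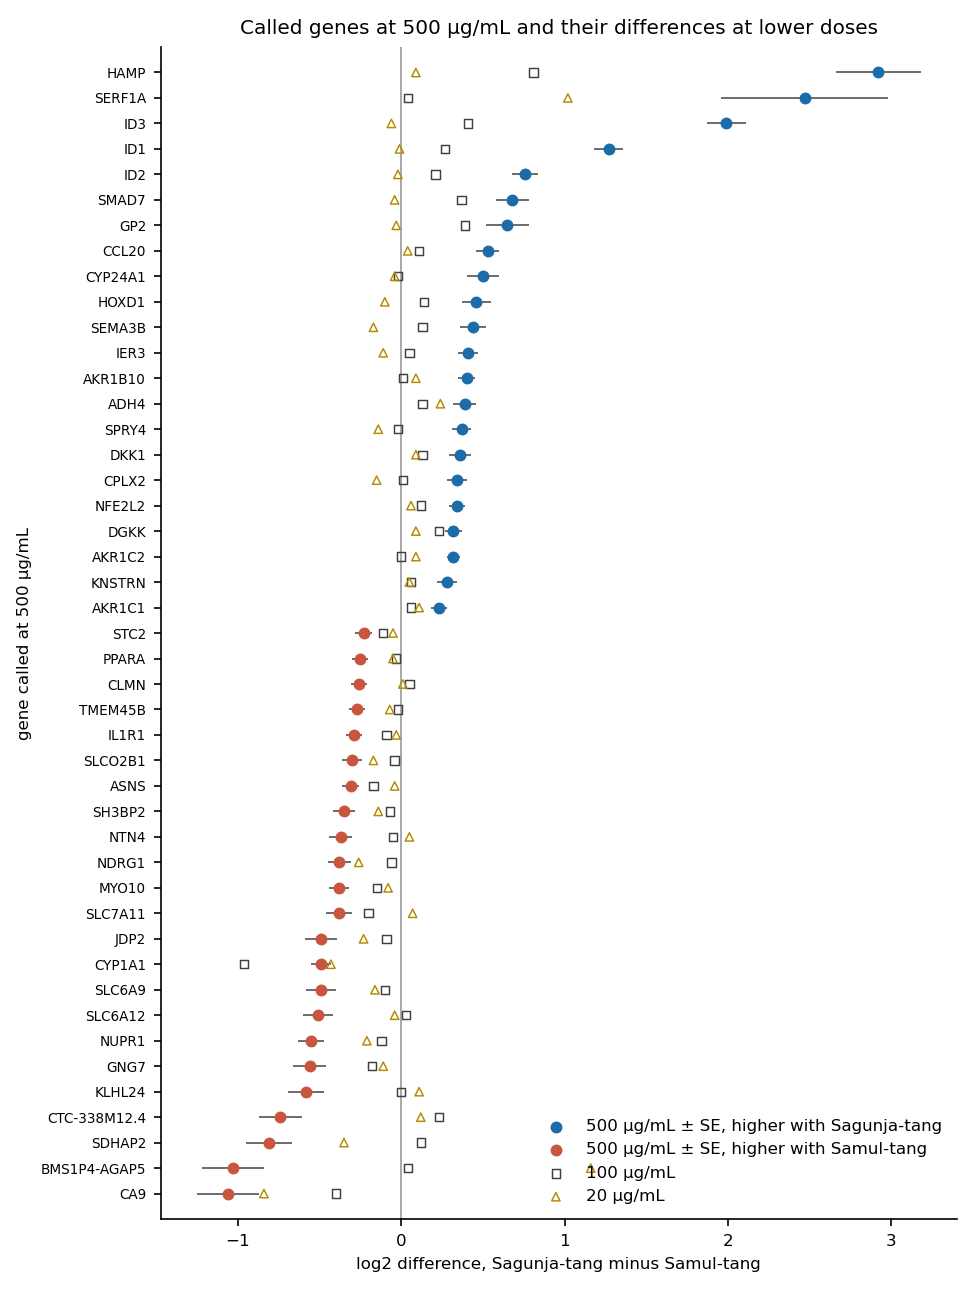
Log2 difference, Sagunja-tang minus Samul-tang, for the 45 genes called at 500 µg/mL (filled circles, bars ± SE), with the difference of the same genes at 100 µg/mL (open squares) and 20 µg/mL (open triangles). HAMP, ID3 and ID1 stand at 2.92, 1.99 and 1.27 at 500 µg/mL and at 0.81, 0.41 and 0.27 at 100 µg/mL.

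HAMP, which encodes hepcidin (ENSG00000105697, GRCh38 chromosome 19, 35280716 to 35285143), had 2.61, 3.24 and 3.87 CPM with Sagunja-tang and 0.466, 0.375 and 0.398 CPM with Samul-tang. These levels came from 64, 117 and 93 reads against 13, 8 and 9, so counting error is part of the Samul-tang values. Each Sagunja-tang library stood well above each Samul-tang library, and both groups lay below the 3 vehicle libraries at 5.8, 7.67 and 5.98 CPM. The difference was 2.92 ± 0.26 (log2 ± SE, adjusted p = 6.27e-06 by edgeR's quasi-likelihood test), a 7.59-fold gap.

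The ID genes encode helix-loop-helix proteins that lack a DNA-binding region and block other transcription factors. ID3 (ENSG00000117318, chromosome 1, 23557918 to 23559794) had 15.2, 17.6 and 16.7 CPM with Sagunja-tang and 3.69, 5.15 and 3.72 CPM with Samul-tang. The vehicle libraries, at 13.7, 14.3 and 11.7 CPM, lay just below all Sagunja-tang libraries and far above all Samul-tang libraries. The difference was 1.99 ± 0.12 (edgeR adjusted p = 2.42e-08), the smallest adjusted p of the comparison.

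ID1 (ENSG00000125968, chromosome 20, 31605283 to 31606515) had 82, 111 and 90 CPM with Sagunja-tang and 39.2, 38.9 and 38.1 CPM with Samul-tang, a difference of 1.27 ± 0.09 (edgeR adjusted p = 2.78e-07). ID2 (ENSG00000115738, chromosome 2, 8678845 to 8684453) had 66, 61.7 and 63.8 CPM against 39.8, 39.6 and 33.6 CPM, a difference of 0.76 ± 0.08 (edgeR adjusted p = 3.16e-05). For both genes the vehicle libraries overlapped those of Sagunja-tang, with 69.8 to 86.7 CPM for ID1 and 64.3 to 65.8 CPM for ID2, and lay above those of Samul-tang. SMAD7, the inhibitory SMAD that switches the receptor off (ENSG00000101665, chromosome 18, 48919853 to 48952052), had 7.75, 8.95 and 8.44 CPM against 5.16, 5.72 and 4.82 CPM. Its difference was 0.68 ± 0.10 (edgeR adjusted p = 0.00493), and the vehicle libraries lay between the formulas at 6.22 to 7.72 CPM. Without Samul-tang replicate 3 the SMAD7 difference was 0.63 (adjusted p = 0.0541), and with only the 6 compared libraries in the fit it was 0.67 (adjusted p = 0.144).

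Of the 5 called BMP-SMAD genes, HAMP, ID3 and SMAD7 held letters that SMADs are known to bind in the 250 bases before their start sites, which are shown for that reason. Sequences are from RefSeq on GRCh38.p14, written 5′ to 3′ on the gene's strand and using the first start listed for each gene. Capitals mark the core of a BMP response element, GGCGCC, which reads the same on both strands, and the SMAD box, CAGAC, searched on both strands. The marked matches do not overlap. The windows are chr19:35282278-35282527 (+) for HAMP, chr1:23559502-23559751 (−) for ID3 and chr18:48950966-48951215 (−) for SMAD7. Each window lies inside the gene span given above, which is from GENCODE and begins further upstream than the RefSeq start used.
HAMP: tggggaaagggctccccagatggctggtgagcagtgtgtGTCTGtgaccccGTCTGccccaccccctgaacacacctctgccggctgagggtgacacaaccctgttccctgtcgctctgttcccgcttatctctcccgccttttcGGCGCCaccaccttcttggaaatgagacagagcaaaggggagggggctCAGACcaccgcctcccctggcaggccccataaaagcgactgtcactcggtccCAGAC
ID3: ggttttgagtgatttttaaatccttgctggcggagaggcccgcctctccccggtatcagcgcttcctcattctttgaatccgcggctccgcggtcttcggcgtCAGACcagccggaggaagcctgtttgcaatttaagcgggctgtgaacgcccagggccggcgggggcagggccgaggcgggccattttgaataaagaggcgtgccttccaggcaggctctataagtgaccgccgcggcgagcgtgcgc
SMAD7: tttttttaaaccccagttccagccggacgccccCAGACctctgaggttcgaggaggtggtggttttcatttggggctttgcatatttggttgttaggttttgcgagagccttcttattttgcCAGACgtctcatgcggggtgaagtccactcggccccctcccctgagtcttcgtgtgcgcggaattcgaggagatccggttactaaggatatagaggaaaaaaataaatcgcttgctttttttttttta

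HAMP held 1 response element core, 105 bases before the start, and 4 SMAD boxes. ID3 held 1 SMAD box and SMAD7 held 2, while ID1 and ID2 had neither motif in this window. Over 35116 RefSeq promoters of this length, 16.4% held the response element core and 38% the SMAD box. Of the 45 called genes, 33 had an entry in that table, of which 3 (9.09%) held the core and 11 (33.3%) the SMAD box.

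The rest of the pathway did not pass the test between the formulas. Of 15 measured genes of the hepcidin and BMP-SMAD list, 5 were higher with Sagunja-tang, 0 were lower and 10 did not pass the test. Of all genes tested, 0.141% were higher and 0.147% lower. The list had a median log2 difference of 0.07 against -0.00 over all genes. SMAD6, the other inhibitory SMAD, had 4.52 ± 0.279 against 3.5 ± 0.629 CPM (SD, n = 3), a difference of 0.36 ± 0.14 (edgeR adjusted p = 0.351). The receptors did not pass: BMPR1A differed by 0.07 ± 0.06, ACVR1 by 0.02 ± 0.08 and BMPR2 by -0.08 ± 0.05. The ligand BMP4, at 77.4 ± 2.52 and 79.5 ± 4.01 CPM, differed by -0.04 ± 0.06. The iron sensors TFR2 and HFE differed by -0.03 ± 0.06 and -0.13 ± 0.12, and TMPRSS6, the protease that restrains hepcidin, by -0.16 ± 0.17. Of 13 measured genes of iron uptake and storage, 0 were called by edgeR at 500 µg/mL. An unadjusted p under 0.05 was found in 2 of them and in 9.93% of all genes tested. The transferrin receptor TFRC differed by -0.08 ± 0.06 and ferroportin, SLC40A1, by -0.07 ± 0.06. The 5 calls of the BMP-SMAD list held when any one of the compared libraries was left out, except SMAD7 without Samul-tang replicate 3.

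**Figure D2:**
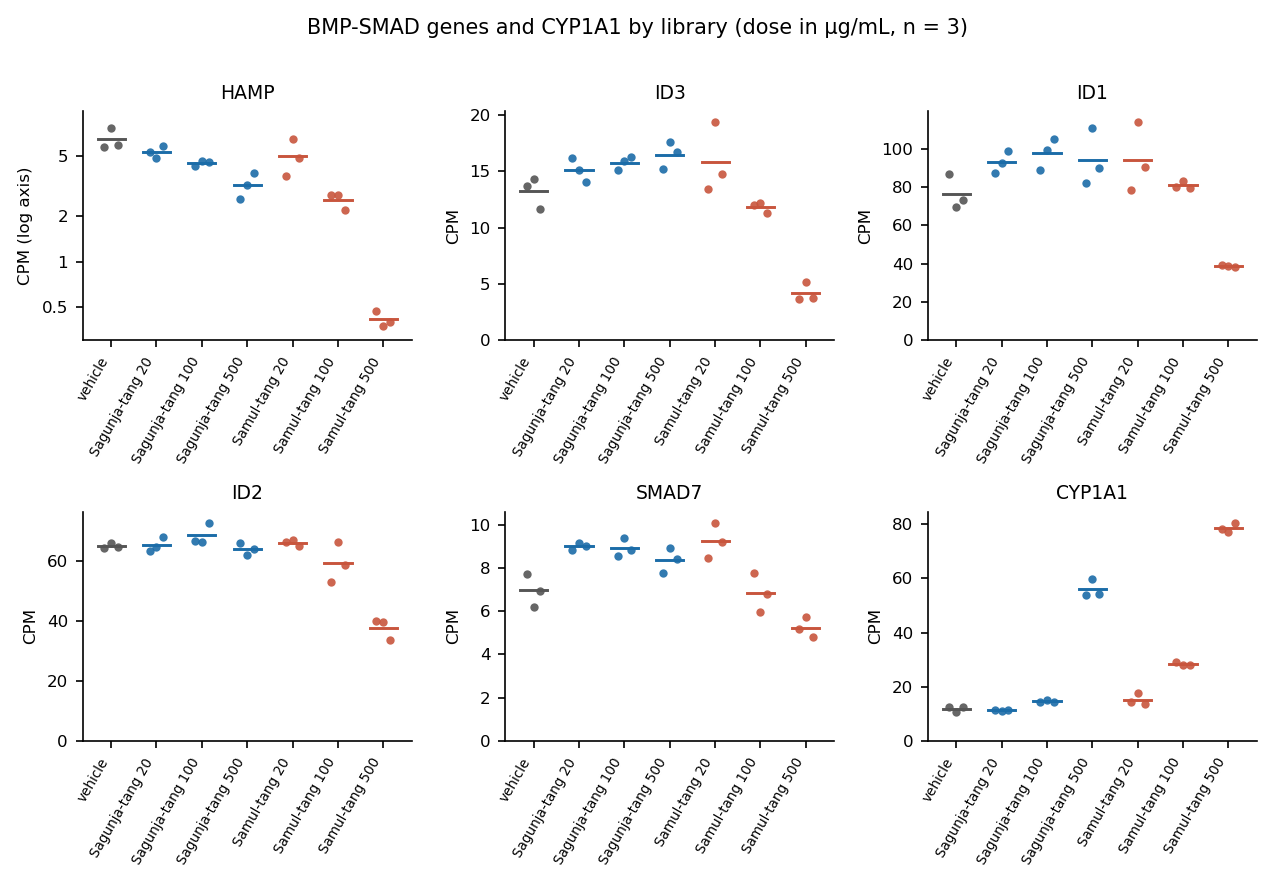
CPM in each library (points) and group mean (bars) for 5 BMP-SMAD genes and CYP1A1 in vehicle and at 20, 100 and 500 µg/mL of each formula, 3 libraries a group, with a log axis for HAMP. At 500 µg/mL the Samul-tang libraries are the lowest of all groups for the 5 BMP-SMAD genes and the highest for CYP1A1.

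The 5 called BMP-SMAD genes fell with the dose of Samul-tang. From 20 to 500 µg/mL of Samul-tang, HAMP fell by 3.58 on the log2 scale (SE 0.24, edgeR adjusted p = 7.14e-08), ID3 by 1.93 (SE 0.12, 1.95e-08), ID1 by 1.27 (SE 0.09, 1.12e-07), SMAD7 by 0.83 (SE 0.10, 0.000145) and ID2 by 0.80 (SE 0.08, 6.64e-06). A further member of the list, TFR2, fell by 0.31 (adjusted p = 0.011), a call that was lost without Samul-tang 20 µg/mL replicate 2 (-0.24, adjusted p = 0.0714). With Sagunja-tang, HAMP fell by 0.74 (SE 0.16, edgeR adjusted p = 0.0185), while ID3 (0.11 ± 0.10), ID1 (0.02 ± 0.09), ID2 (-0.03 ± 0.07) and SMAD7 (-0.10 ± 0.10) did not pass the test. These dose comparisons share the 500 µg/mL libraries with the comparison of the formulas. At 100 µg/mL, which shares no library with it, HAMP had 4.33, 4.69 and 4.6 CPM with Sagunja-tang and 2.78, 2.78 and 2.19 CPM with Samul-tang. The groups did not overlap, as in 10.8% of all genes at that dose (5.36% higher and 5.39% lower with Sagunja-tang), and the difference of 0.81 ± 0.17 did not pass (edgeR adjusted p = 0.858). ID3 at 100 µg/mL had 15.1, 15.9 and 16.3 CPM against 12, 12.2 and 11.3 CPM, again without overlap, a difference of 0.41 ± 0.10 (adjusted p = 1). ID1 (0.27 ± 0.09) and SMAD7 (0.37 ± 0.10) also separated there without passing. The formulas overlapped for ID2 at 100 µg/mL, with 66.1 to 72.6 against 52.9 to 66.3 CPM (0.21 ± 0.07). At 20 µg/mL the formulas overlapped for HAMP (4.85 to 5.85 against 3.7 to 6.51 CPM) and ID3 (14.1 to 16.2 against 13.4 to 19.4 CPM). The highest values at 20 µg/mL of Samul-tang, 6.51 CPM for HAMP, 19.4 for ID3 and 114 for ID1, were all in replicate 2, the library that stood apart. Without it the fall with Samul-tang was -3.34 for HAMP, -1.80 for ID3 and -1.15 for ID1 (edgeR adjusted p = 1.58e-07, 6.69e-08 and 3.61e-07).

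The change of HAMP, ID3, ID1 and ID2 between 20 and 500 µg/mL differed between the formulas when that difference was itself tested. It was 2.83 ± 0.31 for HAMP (edgeR adjusted p = 0.000168), 2.05 ± 0.16 for ID3 (1.42e-06), 1.29 ± 0.13 for ID1 (4.13e-05) and 0.77 ± 0.11 for ID2 (0.00229). In all, 8 of 15608 genes (0.0513%) passed this test, 7 of them (0.0448%) with the more positive change under Sagunja-tang. SMAD7 did not pass it (0.72 ± 0.14, edgeR adjusted p = 0.105). Among the others were IER3 (0.52 ± 0.09), an early response gene, and SPRY4 (0.52 ± 0.08), an inhibitor of receptor tyrosine kinase signalling. CPLX2 (0.49 ± 0.08), a regulator of vesicle fusion, was also called, and was named after its values were seen, as were SH3BP2, IL1R1, TMEM45B, CLMN, KNSTRN, DGKK and SERF1A, the called genes at 500 µg/mL outside the naming rule.

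**Figure D3:**
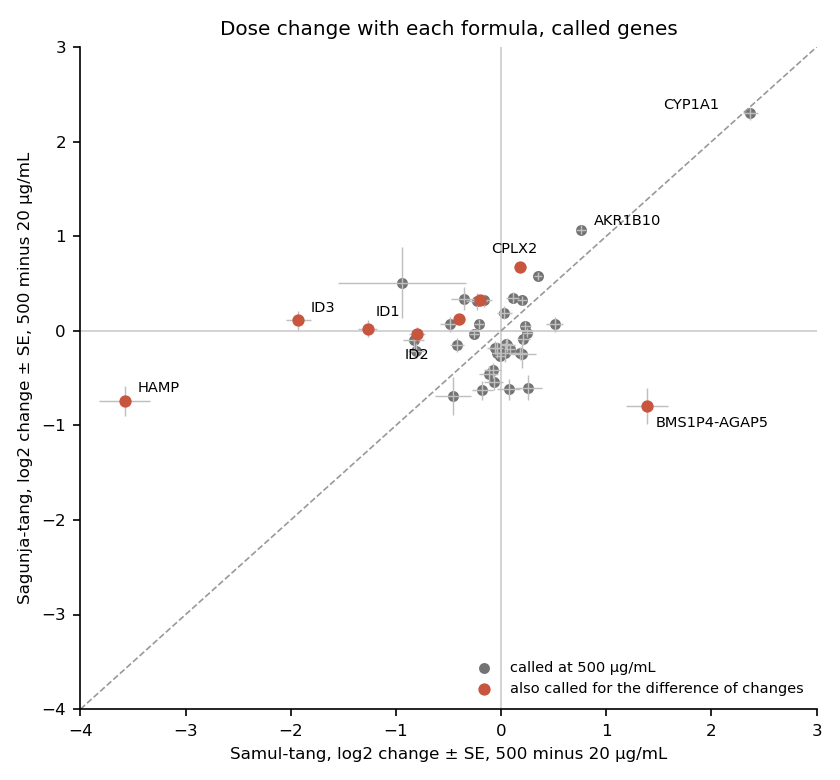
Log2 change from 20 to 500 µg/mL (± SE) with Samul-tang (x axis) and with Sagunja-tang (y axis) for the 45 genes called between the formulas at 500 µg/mL; coloured points are the 8 genes whose changes differed by the interaction test, and the dashed line marks equal change. HAMP, ID3 and ID1 lie far to the left, at -3.58, -1.93 and -1.27 with Samul-tang, while CYP1A1 lies on the line at 2.37 and 2.30.

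CYP1A1, the cytochrome P450 that is the classic readout of the aryl hydrocarbon receptor (ENSG00000140465, chromosome 15, 74719542 to 74725610), rose with the dose of both formulas and was higher with Samul-tang at 500 and 100 µg/mL. At 500 µg/mL it had 53.8, 59.9 and 54.4 CPM with Sagunja-tang and 78.2, 77.2 and 80.6 CPM with Samul-tang, against 12.4, 10.6 and 12.5 CPM in vehicle. The 3 groups did not overlap, and the difference between the formulas was -0.49 ± 0.06 (edgeR adjusted p = 0.000628). At 100 µg/mL it had 14.3, 15.2 and 14.5 CPM against 29.1, 28.2 and 27.9 CPM. The difference there, -0.96 ± 0.07 (edgeR adjusted p = 8.89e-07), was the one call of 15608 genes at that dose (0.00641%). At 20 µg/mL the libraries again did not overlap, at 11.1 to 11.5 against 13.8 to 17.6 CPM, and the difference of -0.43 ± 0.08 did not pass (adjusted p = 0.195). The change from 20 to 500 µg/mL was 2.30 ± 0.07 with Sagunja-tang and 2.37 ± 0.07 with Samul-tang, and the difference of these changes was -0.06 ± 0.10 (edgeR adjusted p = 0.846).

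The 250 bases before the CYP1A1 start (RefSeq, GRCh38.p14, chr15:74725529-74725778, − strand) are shown because they hold 1 core letter match of the xenobiotic response element, GCGTG, which the receptor is known to bind. Capitals mark it, searched on both strands. The GENCODE span given above begins upstream of this RefSeq start, so the window partly overlaps it.
CYP1A1: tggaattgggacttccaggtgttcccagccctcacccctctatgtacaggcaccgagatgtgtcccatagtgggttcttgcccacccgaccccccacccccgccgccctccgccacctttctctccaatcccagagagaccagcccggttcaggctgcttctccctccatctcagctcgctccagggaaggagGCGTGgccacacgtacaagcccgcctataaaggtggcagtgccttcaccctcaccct

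The match lies 57 bases before the start, and 32.2% of all promoters of this length held the motif. Of the 33 called genes with an entry, 16 held it, 8 in each direction.

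No other measured gene of the aryl hydrocarbon receptor list passed the test in the direction of CYP1A1. AHRR, the receptor's repressor and itself a target, came nearest, with 0.367 to 0.582 CPM against 0.75 to 0.968 CPM and no overlap (-0.83 ± 0.28, edgeR adjusted p = 0.29). Of 10, 1 was lower and 1 higher with Sagunja-tang, the latter being NFE2L2, described with the redox genes. Over all genes 0.147% were lower and 0.141% higher. The receptor AHR differed by 0.12 ± 0.07 and its partner ARNT by -0.06 ± 0.07, neither passing. ALDH3A1, an aldehyde dehydrogenase induced by the receptor, rose with both formulas from 20 to 500 µg/mL, by 1.67 ± 0.18 and 1.38 ± 0.17 on the log2 scale (edgeR adjusted p = 2.06e-05 and 0.000129). In the 500 µg/mL libraries it had 3.93 ± 0.174 and 4.1 ± 0.892 CPM (SD, n = 3), a difference of -0.05 ± 0.15. UGT1A1, the bilirubin-conjugating enzyme, whose reads could be shared with overlapping UGT1A transcripts, rose by 0.82 ± 0.08 and 0.67 ± 0.08, and the formulas differed by -0.00 ± 0.08 at 500 µg/mL.

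Many genes of the NRF2 antioxidant list rose with the dose of both formulas, and 3 aldo-keto reductases were higher with Sagunja-tang. Of 26 measured, 3 were higher and 1 lower with Sagunja-tang at 500 µg/mL, where 0.141% and 0.147% of all genes were. The median was 0.07 against -0.00 over all genes. From 20 to 500 µg/mL, 13 rose and 0 fell with Sagunja-tang and 13 rose and 1 fell with Samul-tang, where 1.08% and 1.02% of all genes rose. Without Samul-tang 20 µg/mL replicate 2, 16 rose and 0 fell with Sagunja-tang and 10 rose and 1 fell with Samul-tang, where 3.09% and 0.309% of all genes rose. AKR1B10, which reduces reactive aldehydes, had 72.8, 76.4 and 82.5 CPM with Sagunja-tang and 56.8, 55.9 and 62.2 CPM with Samul-tang. All 6 lay above the vehicle libraries at 38.8 to 40.3 CPM, and the groups did not overlap (0.40 ± 0.05, edgeR adjusted p = 0.000628). At 100 µg/mL the formulas overlapped, at 41.3 to 42.8 against 40.5 to 43 CPM, and the difference was 0.01 ± 0.05. With only the 6 compared libraries in the fit the AKR1B10 call was lost (0.40, edgeR adjusted p = 0.0805).

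AKR1C2 and AKR1C1, steroid and aldehyde reductases, are near-identical neighbours on chromosome 10, so reads may be split between them and each value is uncertain. AKR1C2 had 229, 238 and 225 CPM against 184, 186 and 185 CPM, without overlap (0.32 ± 0.04, edgeR adjusted p = 0.0018). AKR1C1 had 345, 371 and 335 CPM against 290, 300 and 304 CPM, also without overlap (0.23 ± 0.05, adjusted p = 0.0414). The AKR1C1 call was lost without any one of 5 of the 6 libraries, Sagunja-tang replicate 3 being the exception, with adjusted p from 0.143 to 0.202. NFE2L2, which encodes NRF2 itself, had 200, 176 and 193 CPM with Sagunja-tang and 155, 145 and 149 CPM with Samul-tang. Its difference was 0.34 ± 0.05 (edgeR adjusted p = 0.00495). It fell by 0.21 (SE 0.05, adjusted p = 0.0418) from 20 to 500 µg/mL of Samul-tang, while the value with Sagunja-tang, 0.07 ± 0.05, did not pass, and the vehicle libraries, at 169 to 188 CPM, overlapped those of Sagunja-tang only. The difference of these changes did not pass (0.28 ± 0.07, adjusted p = 0.328), and without Samul-tang 20 µg/mL replicate 2 the fall was -0.24 (adjusted p = 0.0383). With only the 6 compared libraries the calls of AKR1C2 (0.31, edgeR adjusted p = 0.235) and NFE2L2 (0.34, adjusted p = 0.199) were lost.

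Most redox genes did not pass the test between the formulas. NQO1, the quinone reductase, had 540 ± 34.7 against 488 ± 34.9 CPM (SD, n = 3), above the 382 ± 19 CPM of vehicle, and differed by 0.15 ± 0.06 (edgeR adjusted p = 0.392). TXNRD1, thioredoxin reductase, differed by 0.19 ± 0.05 (adjusted p = 0.166), SRXN1, sulfiredoxin, by 0.16 ± 0.05 (adjusted p = 0.233) and GCLM, a subunit of the glutathione synthesis enzyme, by -0.01 ± 0.09. The member that was lower with Sagunja-tang was SLC7A11, the cystine importer, which ATF4 also regulates. It had 43.7, 47 and 40.9 CPM with Sagunja-tang, 61.1, 50.2 and 60.3 CPM with Samul-tang and 28.4 to 29.7 CPM in vehicle. The groups did not overlap, though Sagunja-tang replicate 2 and Samul-tang replicate 2 were close (-0.38 ± 0.08, edgeR adjusted p = 0.0365). The SLC7A11 call was lost without replicate 1 or 3 of either formula, with adjusted p of 0.182 to 0.24, and not without replicate 2 of either. At 20 µg/mL both formulas were already above vehicle, at 42 ± 1.45 and 40.2 ± 4.39 CPM. From 20 to 500 µg/mL SLC7A11 rose by 0.51 ± 0.08 with Samul-tang (edgeR adjusted p = 0.000817, and 0.42 with 0.00488 without its 20 µg/mL replicate 2). The value with Sagunja-tang, 0.07 ± 0.08, did not pass, nor did the difference of the changes (-0.44 ± 0.11, adjusted p = 0.291).

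Genes of the ATF4 amino acid response, by which cells answer a lack of amino acids, were lower with Sagunja-tang where they differed. Of 28 measured, 0 were higher and 4 lower with Sagunja-tang, where 0.141% and 0.147% of all genes were. The median was -0.06. NUPR1, a stress-induced chromatin protein, had 7.59, 7.71 and 8.23 CPM with Sagunja-tang and 11.7, 12.2 and 10.3 CPM with Samul-tang. Only the Sagunja-tang libraries lay below the vehicle libraries, at 9.37 to 11.6 CPM, and the difference was -0.55 ± 0.08 (edgeR adjusted p = 0.00302). NUPR1 fell by 0.42 (SE 0.08, adjusted p = 0.00754) from 20 to 500 µg/mL of Sagunja-tang, and the value with Samul-tang, -0.08 ± 0.08, did not pass, nor did the difference of the changes (-0.34 ± 0.11, adjusted p = 0.393). With only the 6 compared libraries the NUPR1 call was lost (-0.55, edgeR adjusted p = 0.235).

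ASNS, asparagine synthetase, had 35.3, 39.6 and 35.8 CPM with Sagunja-tang and 44, 47.5 and 45.5 CPM with Samul-tang, without overlap. Its difference was -0.31 ± 0.05 (edgeR adjusted p = 0.00778), and the vehicle libraries, at 43 to 47.3 CPM, overlapped those of Samul-tang. ASNS rose by 0.25 ± 0.05 from 20 to 500 µg/mL of Samul-tang (adjusted p = 0.00881, and 0.22 with 0.0381 without its 20 µg/mL replicate 2). The value with Sagunja-tang was -0.02 ± 0.05, and the difference of the changes did not pass (-0.27 ± 0.07, adjusted p = 0.328). At 20 µg/mL both formulas were already below vehicle, at 37.3 ± 0.882 and 38.3 ± 0.315 CPM. Its call was lost without Sagunja-tang replicate 1 (adjusted p = 0.0654) and without Samul-tang replicate 2 (0.0532) or 3 (0.0599). The 250 bases before the ASNS start (RefSeq, GRCh38.p14, chr7:97872409-97872658, − strand) are shown for the amino acid response element, TGATGNAA on either strand, in capitals, which ATF4 is known to bind.
ASNS: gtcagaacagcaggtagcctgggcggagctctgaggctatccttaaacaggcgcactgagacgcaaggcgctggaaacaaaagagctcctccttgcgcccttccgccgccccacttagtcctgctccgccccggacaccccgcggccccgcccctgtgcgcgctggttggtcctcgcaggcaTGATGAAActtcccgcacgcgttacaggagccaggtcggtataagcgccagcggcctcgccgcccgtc

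It lies 68 bases before the start. The motif was in 3.14% of all promoters of this length and in 1 of the 33 called genes with an entry.

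The other 2 called members were JDP2, a repressor of the AP-1 family (3.28 ± 0.243 against 4.61 ± 0.19 CPM, SD, n = 3), and STC2, a secreted glycoprotein (44.4 ± 3.52 against 52 ± 1.68 CPM). Their differences were -0.49 ± 0.10 (edgeR adjusted p = 0.0464) and -0.23 ± 0.05 (adjusted p = 0.0496), and both calls were lost without any one of the 6 libraries, with adjusted p from 0.144 to 0.192 and from 0.113 to 0.281. The regulator ATF4 (-0.02 ± 0.04) and its targets DDIT3 (-0.01 ± 0.10) and TRIB3 (0.02 ± 0.07) did not pass. PHGDH, PSPH and PSAT1, enzymes of serine synthesis, differed by -0.17 ± 0.05, -0.14 ± 0.06 and -0.05 ± 0.06, and none passed.

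**Figure D4:**
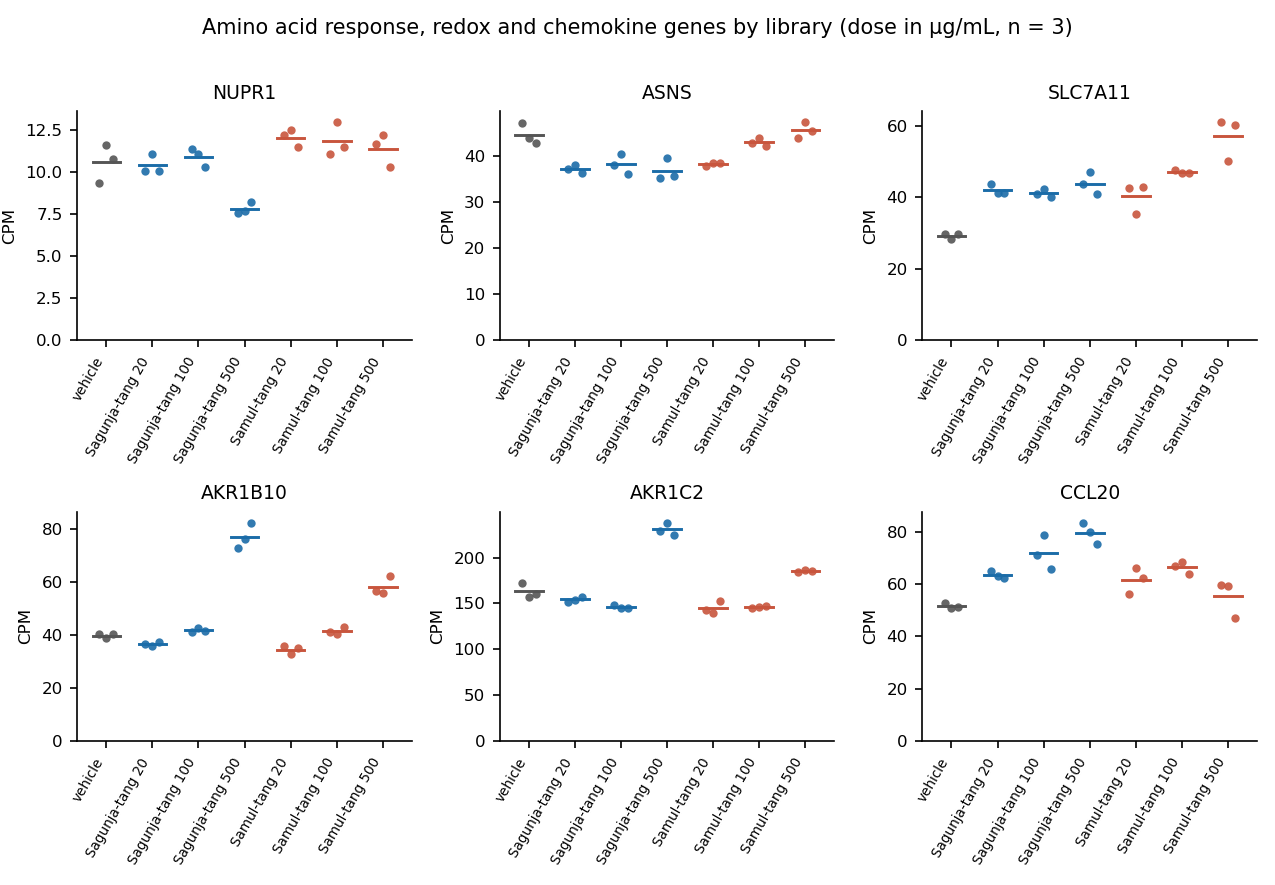
CPM in each library (points) and group mean (bars) for NUPR1, ASNS, SLC7A11, AKR1B10, AKR1C2 and CCL20 in vehicle and at 20, 100 and 500 µg/mL of each formula, 3 libraries a group, axes from 0. NUPR1 is lowest with Sagunja-tang at 500 µg/mL (7.84 CPM on average), while AKR1B10, AKR1C2 and CCL20 are highest there (77.2, 231 and 79.6 CPM).

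Early response and chemokine genes were higher with Sagunja-tang where they differed. Of 20 measured genes of the AP-1 and immediate early list, 2 were higher and 0 lower, where 0.141% and 0.147% of all genes were. The median was 0.13. IER3 had 67.5, 62.4 and 58 CPM with Sagunja-tang and 45.8, 50.7 and 44.9 CPM with Samul-tang, without overlap, and vehicle lay at 57.4 to 63.1 CPM (0.41 ± 0.06, edgeR adjusted p = 0.00493). Without Samul-tang replicate 1 the IER3 difference was 0.38 (adjusted p = 0.0551), and with only the 6 compared libraries 0.41 (adjusted p = 0.177). SPRY4 had 53.3, 49.9 and 51.8 CPM against 40.3, 41.9 and 37.2 CPM, with the vehicle libraries between them at 46.1 to 47.1 CPM (0.37 ± 0.06, adjusted p = 0.00493). Without Samul-tang replicate 3 the SPRY4 difference was 0.34 (adjusted p = 0.0541), and with only the 6 compared libraries 0.37 (adjusted p = 0.202).

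SPRY2 (0.38 ± 0.09, edgeR adjusted p = 0.119) and EGR1 (0.37 ± 0.09, adjusted p = 0.112) did not pass, nor did JUN (0.24 ± 0.07) or FOS (0.07 ± 0.23). CCL20, a chemokine that draws immune cells through CCR6, had 83.4, 80 and 75.4 CPM with Sagunja-tang and 59.6, 59.2 and 46.9 CPM with Samul-tang. All Sagunja-tang libraries lay above vehicle, at 50.7 to 52.8 CPM, and the Samul-tang libraries lay on both sides of it (0.53 ± 0.07, edgeR adjusted p = 0.00136). CCL20 was the one call among 14 measured NF-kB and chemokine genes, where 0.288% of all genes were called in either direction. CXCL8 differed by 0.36 ± 0.15 (edgeR adjusted p = 0.426) and TNFAIP3 by -0.00 ± 0.05. DKK1, a secreted Wnt inhibitor, was the one call among 17 Wnt genes, with 94.1, 105 and 102 against 86, 74.4 and 74.2 CPM, all below vehicle at 122 to 131 CPM (0.36 ± 0.07, edgeR adjusted p = 0.0244). The DKK1 call was lost without replicate 2 or 3 of either formula (adjusted p of 0.0872 to 0.194).

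Among hypoxia and glycolysis genes, 33 measured, 0 were higher and 2 lower with Sagunja-tang, where 0.141% and 0.147% of all genes were. The median was -0.02. CA9, a carbonic anhydrase of the cell surface, had 1.39, 1.61 and 1.75 CPM with Sagunja-tang and 3.98, 2.62 and 3.14 CPM with Samul-tang. The Sagunja-tang libraries lay below vehicle (2.3 to 2.97 CPM), and the Samul-tang libraries overlapped it (-1.06 ± 0.19, edgeR adjusted p = 0.0201). CA9 also separated the formulas at 20 µg/mL, at 2.05 to 3 against 3.66 to 5.44 CPM (-0.84 ± 0.17, adjusted p = 0.328). With all 18 libraries in the fit, its change from 20 to 500 µg/mL did not pass with either formula. Without Samul-tang 20 µg/mL replicate 2 that change passed with Sagunja-tang (-0.68, edgeR adjusted p = 0.0433) and not with Samul-tang (-0.34, adjusted p = 0.522). NDRG1, a stress-induced gene, had 41.5, 35.5 and 38.8 against 49.2, 52.8 and 48 CPM (-0.38 ± 0.07, edgeR adjusted p = 0.0158). Both calls depended on single libraries: CA9 was lost without replicate 1 of either formula, Sagunja-tang replicate 2 or Samul-tang replicate 3 (adjusted p of 0.122 to 0.155), and NDRG1 without replicate 2 of either or Samul-tang replicate 3 (0.103 to 0.126). The glycolytic genes SLC2A1 (0.15 ± 0.05), PGK1 (-0.06 ± 0.05) and LDHA (0.07 ± 0.06) and the growth factor VEGFA (-0.13 ± 0.04) did not pass.

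**Figure D5:**
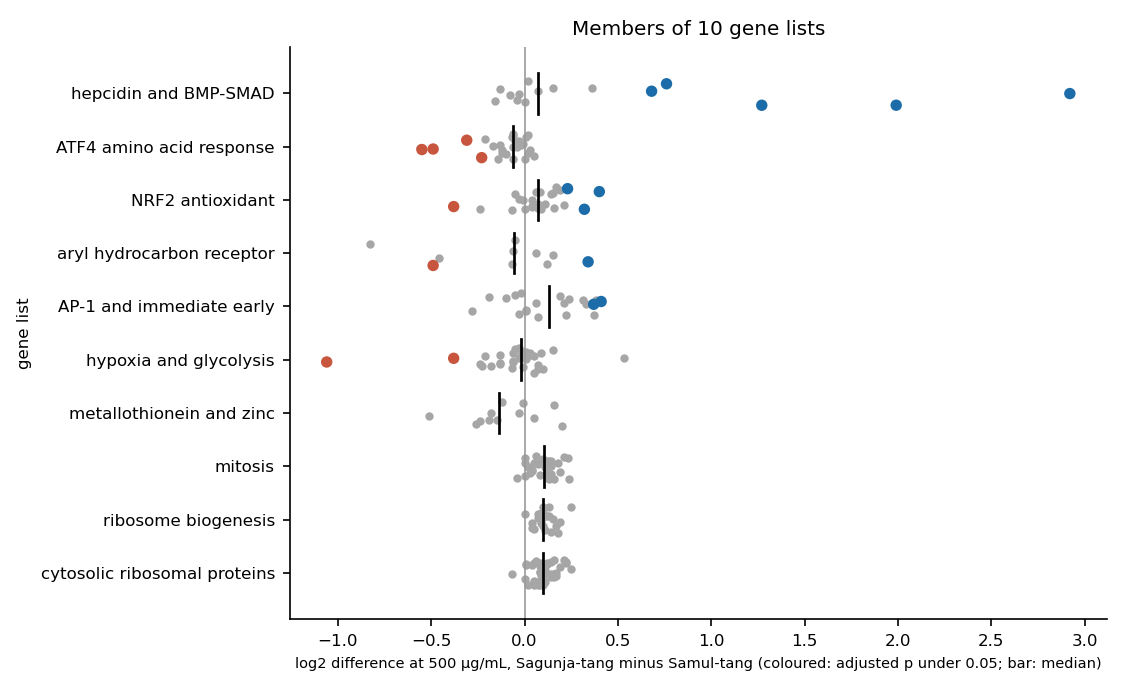
Log2 difference at 500 µg/mL, Sagunja-tang minus Samul-tang, of each measured member (points) of 10 gene lists, with the list median as a bar; members called by edgeR are coloured. The 5 called BMP-SMAD genes lie from 0.68 to 2.92, away from the other members, while mitosis and ribosome lists are shifted by about 0.10 with no member called.

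The remaining calls were single genes of mixed function. Higher with Sagunja-tang were GP2, a zymogen granule membrane protein (0.65 ± 0.13), CYP24A1, which inactivates vitamin D (0.50 ± 0.10), HOXD1, a homeobox factor (0.46 ± 0.09), SEMA3B, a secreted semaphorin (0.44 ± 0.08), and ADH4, an alcohol dehydrogenase (0.39 ± 0.07). CPLX2 had 229, 233 and 246 CPM against 175, 190 and 195 CPM (0.34 ± 0.06), and both groups lay above vehicle (158 to 174 CPM). DGKK, a diacylglycerol kinase (0.32 ± 0.05), and KNSTRN, a spindle protein (0.28 ± 0.06), were also higher. Lower with Sagunja-tang were KLHL24, a ubiquitin ligase adaptor (-0.58 ± 0.11), GNG7, a G protein subunit (-0.56 ± 0.10), SLC6A12, the betaine transporter (-0.51 ± 0.09), SLC6A9, the glycine transporter (-0.49 ± 0.09), MYO10, a filopodial motor (-0.38 ± 0.06), and NTN4, a netrin (-0.37 ± 0.07). SH3BP2 (-0.35 ± 0.07), SLCO2B1, an organic anion transporter (-0.30 ± 0.06), IL1R1, the interleukin-1 receptor (-0.29 ± 0.05), TMEM45B (-0.27 ± 0.05), CLMN (-0.26 ± 0.05) and PPARA, the nuclear receptor of fatty acid oxidation (-0.25 ± 0.05), were also lower. In each of these the adjusted p by edgeR's quasi-likelihood test lay between 0.00797 for MYO10 and 0.0432 for SLCO2B1. Each of these 20 calls was lost without at least 2 of the 6 compared libraries, CPLX2 and MYO10 without 2, DGKK without 3 and the others without 4 to 6.

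A further 4 calls are uncertain. Reads of SERF1A, BMS1P4-AGAP5 and SDHAP2 may be shared with related copies, and whether this holds for CTC-338M12.4, a processed transcript, was not tested. SERF1A, which has a near-identical copy, had 23, 10 and 17 reads with Sagunja-tang and 3, 1 and 4 with Samul-tang (2.47 ± 0.51, edgeR adjusted p = 0.0415), and its call was lost without any one of the 6 libraries (adjusted p of 0.0827 to 0.24). BMS1P4-AGAP5, a readthrough transcript, had 1.43, 1.61 and 1.62 against 2.76, 3.84 and 2.96 CPM at 500 µg/mL (-1.03 ± 0.19, adjusted p = 0.0225). At 20 µg/mL the same gene had 2.6 to 2.81 CPM with Sagunja-tang and 0.952 to 1.66 CPM with Samul-tang, without overlap in the other direction (1.16 ± 0.20, adjusted p = 0.195). SDHAP2, a pseudogene of a respiratory chain subunit, differed by -0.81 ± 0.14 and CTC-338M12.4 by -0.74 ± 0.13, and BMS1P4-AGAP5, SDHAP2 and CTC-338M12.4 were each lost without any one of 5 libraries (adjusted p as high as 0.157, 0.0961 and 0.146).

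Most of the 45 genes had the same sign at 100 µg/mL, with smaller differences, while at 20 µg/mL the share was nearer that of all genes. At 100 µg/mL 37 of 45 (82.2%) had the sign they had at 500 µg/mL, against 53.5% of all genes tested. At 20 µg/mL 28 (62.2%) did, against 53.2%. These were 11 of the 22 genes higher with Sagunja-tang (50%) and 17 of the 23 lower (73.9%). The libraries separated the same way at 100 µg/mL in 17 (37.8%), against 6.55% of all genes, and at 20 µg/mL in 12 (26.7%), against 7.99%. Counted in either direction, the 20 µg/mL libraries separated in 14.3% of all genes, with 6.89% higher and 7.36% lower with Sagunja-tang. Taken in the direction of 500 µg/mL, the median log2 difference of the 45 was 0.41 at 500, 0.09 at 100 and 0.05 at 20 µg/mL. At 20 µg/mL edgeR called 0 genes, with 2160 (13.8%) at an unadjusted p under 0.05 and 6 called by DESeq2. The share at an unadjusted p under 0.05 was 9.93% (1550 genes) at 500 µg/mL and 2.59% (404 genes) at 100 µg/mL, so it did not follow the dose. At 100 µg/mL DESeq2 also called 1 gene.

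Levels in vehicle were set beside these genes without a test, since the vehicle codes name no set and set and treatment cannot be told apart there. Libraries separated from vehicle in 28.1% of all genes for Sagunja-tang and 29.9% for Samul-tang. Of the 22 genes higher with Sagunja-tang, the Samul-tang libraries lay wholly below vehicle in 15 and wholly above in 4, where 14.8% and 15.1% of all genes did. Sagunja-tang lay wholly above vehicle in 11 of the 22 and below in 3, where 14.1% and 14% of all genes did. Of the 23 genes higher with Samul-tang, the Sagunja-tang libraries lay wholly below vehicle in 14 and above in 3, and those of Samul-tang wholly above in 9 and below in 1. The 22 and 23 genes were chosen because these same libraries differed between the formulas. An excess over the shares of all genes is therefore partly built in by that choice, and no conclusion is drawn from it.

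The changes of each formula between 20 and 500 µg/mL depended on the libraries in the fit. With Sagunja-tang 355 genes changed (2.27%), 169 up and 186 down (1.19%), and with Samul-tang 479 (3.07%), 159 up and 320 down (2.05%). Without Samul-tang 20 µg/mL replicate 2 these counts were 916 and 141, beside 140 between the formulas at 500 µg/mL. The count for Sagunja-tang was 112 without Sagunja-tang 20 µg/mL replicate 1 and 128, 135, 145 and 184 without 20 µg/mL replicate 3, 500 µg/mL replicate 1, 20 µg/mL replicate 2 and 500 µg/mL replicate 3. The Samul-tang count was 957 and 1299 without its 20 µg/mL replicates 1 and 3, and 178, 203 and 119 without its 500 µg/mL replicates 1, 2 and 3.

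Several metallothioneins, small zinc-binding proteins, fell with the dose of both formulas. Of 12 genes of the metallothionein and zinc list, 6 fell and 1 rose with Sagunja-tang, and 5 fell and 1 rose with Samul-tang. Over all genes 1.19% and 2.05% fell, and 1.08% and 1.02% rose. Without Samul-tang 20 µg/mL replicate 2 the list counts were 8 and 1, and 5 and 1. The shares of all genes were then 2.69% and 0.58% falling, and 3.09% and 0.309% rising. Between the formulas 0 of the 12 differed by edgeR at 500 µg/mL, with 4 lower and 1 higher at an unadjusted p under 0.05. Of all 15608 genes, 839 were lower and 711 higher at that level. MT1F fell by 1.04 (SE 0.09, edgeR adjusted p = 2.53e-06) with Sagunja-tang and by 0.78 (SE 0.09, 5.63e-05) with Samul-tang, and it had 22.8 ± 1.04 and 26.8 ± 3.81 CPM (SD, n = 3) at 500 µg/mL against 51 ± 8.24 in vehicle. MT2A fell by 0.76 (SE 0.09) and 0.93 (SE 0.10), and differed by 0.05 ± 0.10 between the formulas. Metallothionein genes resemble each other, so reads may be split among them.

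Several large groups leaned one way without a call. With Sagunja-tang 25 of 25 ribosome biogenesis genes, 27 of 28 mitosis genes, 28 of 32 DNA replication genes and 45 of 47 cytosolic ribosomal protein genes were on the higher side at 500 µg/mL, with medians of 0.10, 0.11, 0.09 and 0.10. Over all genes the signs were nearly even, 7733 against 7875. None of these members was called by edgeR, and 8, 10, 12 and 7 of them had an unadjusted p under 0.05, all on the higher side. Of all 15608 genes tested, 9.93% had such a p, 711 on the higher side and 839 on the lower. Other lists leaned as well, and in both directions. On the higher side were 29 of 31 proteasome, 19 of 20 heat shock and 17 of 21 unfolded protein response genes. On the lower side were 23 of 28 ATF4, 18 of 24 lysosome and autophagy and 16 of 20 acute phase and complement genes. In the ribosome biogenesis list 8 genes rose from 20 to 500 µg/mL of Sagunja-tang, NOP2 (0.27) and RRP9 (0.29) among them, and 1, WDR12 (0.20), with Samul-tang. Over all genes 1.08% and 1.02% rose. Without Samul-tang 20 µg/mL replicate 2 the list counts were 18 and 0, where 3.09% and 0.309% of all genes rose. The difference of the changes passed in 0 of the 25 in either fit. Of 24 cholesterol synthesis and uptake genes, 10 fell with Samul-tang (MVD at -0.45 among them) and 3 with Sagunja-tang, where 2.05% and 1.19% of all genes fell. Without Samul-tang 20 µg/mL replicate 2 the order turned round, with 8 and 11, where 0.58% and 2.69% of all genes fell. Of these genes 0 differed by edgeR at 500 µg/mL, and 6 had an unadjusted p under 0.05, where 9.93% of all genes did. The difference of the changes passed in 0 of the 24 in either fit.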

How the data were processed

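Messenger RNA was sequenced from HepG2 cells as 100 bp paired ends from a directional library kit, per the labels' protocols. The deposited table holds expected counts per Ensembl gene, the authors' estimates, not normalised for depth or length; the unit was read from the values, 8.58% of which are not whole numbers. FastQC 0.11.9, Trim Galore 0.6.5, STAR 2.7.3a, RSEM 1.3.3 and the build GRCh38 are named in the submitters' processing notes; the annotation release is not given in the sources used here. Of 270 columns, 60 matched sample labels and 210 were not used. Symbols, biotypes and positions came from GENCODE release 29.

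Counts were rounded and fitted in R 4.3.3 with edgeR 4.0.16 (filterByExpr, TMM scaling, quasi-likelihood F test, two-sided) over the 18 libraries of set 7, with 6 group means and the replicate number as a block of 3 levels, since the comparison was set with it. Benjamini-Hochberg adjustment ran over all 15608 genes that passed the filter, and an adjusted p under 0.05 is called. Differences are log2, Sagunja-tang minus Samul-tang, with SE from the F statistic. CPM values were TMM-scaled over all 60 libraries; they are not corrected for gene length, so levels are compared within a gene only. Replicates of a formula differed by more than sampling noise (chi-square per degree of freedom of 6.99 to 42.9), so none was counted as a duplicate. Counting error of low genes such as HAMP follows from their reads. DESeq2 1.42.0 and other settings were alternatives. The scripts were tested on simulated data.

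Genes are named by rule: the 15 largest differences in each direction at 500 µg/mL (called, at least 2 CPM, no overlap), 5 for the other comparisons, and up to 4 called members of each of 42 gene lists. The members and lists were chosen with earlier results of these data known.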

Additional observations from a re-analysis of the deposited data

Results flagged for a closer look

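The change from 20 to 500 µg/mL differed between the formulas, by edgeR's test of that difference, in 8 genes. The log2 change with Sagunja-tang minus that with Samul-tang was 2.83 for HAMP, 2.05 for ID3, 1.29 for ID1, 0.77 for ID2, 0.52 for IER3, 0.52 for SPRY4, 0.49 for CPLX2 and -2.19 for BMS1P4-AGAP5. Without Samul-tang 20 µg/mL replicate 2 these values were 2.61, 1.92, 1.18, 0.77, 0.51, 0.46, 0.42 and -1.96, and all 8 still passed. For BMS1P4-AGAP5, whose reads may be shared with related copies, the formulas differed in opposite directions at 500 µg/mL (-1.03) and 20 µg/mL (1.16, adjusted p = 0.195).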

How the results depend on the processing

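Of the 45 calls at 500 µg/mL, 6 (HAMP, ID1, ID2, ID3, CCL20 and CYP1A1) passed in each of 13 alternatives, and 39 were lost in at least one, 35 of them without some library. No direction reversed in any alternative. For 500 µg/mL the count was 187 with no filter on low counts, 6 with only the compared groups, 143 with all 57 replicated libraries and no block, 89 with DESeq2, 15 to 29 without one compared library and 140 without Samul-tang 20 µg/mL replicate 2, chosen after seeing the data. The fit with no replicate block called 31, all among the 45. Same-numbered libraries at 500 µg/mL did not deviate together (correlations of -0.13 to -0.05), so the numbers do not show a pairing.

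For 100 µg/mL the counts were 61 (no filter) and 12 (compared groups), for 20 µg/mL 210, 3 and 6 (DESeq2), and 0 to 1 without one library. For the Sagunja-tang dose change they were 657, 211 and 807 (57 libraries) and 112 to 916 without one library, and for Samul-tang 1441, 174, 1597, 997 (DESeq2) and 119 to 1299. For the difference of the changes they were 190, 5, 23 and 27, and 5 to 10 without one library. Fits of only the compared groups have fewer samples to estimate the spread. The cause of the differing counts was not tested for any setting. With 3 libraries a group, small differences cannot be resolved.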

Other observations

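Palmul-tang, a formula that by tradition joins the herbs of Sagunja-tang and Samul-tang, was sequenced as 1 library at each dose, so its values are given without a test. At 500 µg/mL HAMP, the hepcidin gene, had 0.502 CPM, close to the 0.375 to 0.466 CPM of Samul-tang and below the 2.61 to 3.87 CPM of Sagunja-tang. ID3 had 6.21 CPM and ID1 57.1 CPM, between the 2 formulas, and ID2 had 44.3 CPM. At 100 µg/mL HAMP had 3.48 CPM and ID3 13.4 CPM. CYP1A1 had 66.5 CPM at 500 µg/mL, between the formulas as well. AKR1B10 had 58.6 CPM, within the Samul-tang range of 55.9 to 62.2 CPM, and NUPR1 had 10.2 CPM, just below that of 10.3 to 12.2 CPM.

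Rehmanniae Radix Preparata and Cnidii Rhizoma, herbs of the traditional Samul-tang, were in the series as single extracts in libraries of set 5. At 500 µg/mL HAMP had 1.14 to 1.51 CPM with Rehmanniae Radix Preparata and 1.06 to 1.95 CPM with Cnidii Rhizoma over 3 libraries each. ID3 had 6.26 to 8.72 and 9.53 to 11.3 CPM, and ID1 had 52.4 to 58.7 and 70.1 to 79.8 CPM. CYP1A1, at 16.6 to 20.1 and 10.7 to 12.6 CPM, was far below its level with either formula. For these 4 genes the single herbs and the formulas differ in set as well as in content, which cannot be told apart.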
